A study of Mus musculus with 9 samples.

Results

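The constant regions of the immunoglobulin heavy chains, the kappa light chain constant region and the J chain were followed in back skin, as 10 genes chosen by name from the table of expression values (Ighm, Ighd, Ighg1, Ighg2b, Ighg2c, Ighg3, Ighe, Igha, Igkc and Jchain). They are 10 of the 34637 genes with an FPKM value and of the 55401 genes in the count table, and 9 of them passed the filter on low counts that left 20817 genes for testing. All libraries came from male C57BL/6 mice that were 6 to 8 weeks old at the start of the experiment. Dermatitis was raised in them with DNCB, a contact sensitizer, painted on the shaved back. It was given at 1% on day 1 and at 0.5% on repeated days from day 4 to day 21. After day 7 the 5 mice of the FJDHF group were fed the Fangji Dihuang formulation daily, the 4 mice of the Model group received water in its place, and the skin was taken on day 28. The question was whether FJDHF changed the antibody transcripts of the inflamed skin. The 9 libraries carry column codes that the sources used here do not explain. The 5 columns coded MR were taken as FJDHF and the 4 coded MXL as Model, since these numbers match the group sizes and MX abbreviates the Chinese term for model, so every direction given here rests on that assignment. Whether a code with several numbers, such as MR3_4, marks pooled mice is not stated, so n counts libraries, and p-values measure the spread between them.

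An antibody is built from paired heavy and light chains, and the constant region of the heavy chain sets its class. B cells start with IgM and IgD, which are made from one primary transcript by alternative splicing, and class switching later joins the same variable region to a gamma, epsilon or alpha constant region. Plasma cells, the antibody-secreting end stage, hold very large amounts of these transcripts, and the J chain links IgM and IgA into polymers. In skin, IgE arms mast cells, and its level in serum is often raised in atopic dermatitis.

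The 8 heavy chain genes lie on the minus strand of chromosome 12 between 113254830 and 113422730 (GRCm38), Igkc lies at chr6:70726435-70726966 on the plus strand, and Jchain at chr5:88519809-88527891 on the minus strand. No exon of another gene overlapped an exon of any member in the GENCODE M21 annotation. The 4 IgG genes are the members most at risk of sharing reads, and their hinge, exon 2, carries the cysteines that bond the paired heavy chains. The 4 hinge exons are shown 5′ to 3′ with the in-frame cysteine codons in capitals, because their length and number of cysteines differ between the subclasses.
Ighg1, chr12:113329844-113329882, minus strand: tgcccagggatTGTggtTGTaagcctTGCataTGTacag
Ighg2b, chr12:113307261-113307326, minus strand: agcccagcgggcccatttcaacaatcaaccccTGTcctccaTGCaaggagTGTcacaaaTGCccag
Ighg2c, chr12:113288263-113288325, minus strand: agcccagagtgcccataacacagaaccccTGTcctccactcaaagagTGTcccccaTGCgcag
Ighg3, chr12:113360529-113360576, minus strand: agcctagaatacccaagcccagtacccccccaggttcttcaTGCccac
The hinges of Ighg1 and Ighg2b held 4 cysteine codons each, that of Ighg2c 3 and that of Ighg3 1. Over the 6 pairs of IgG genes the hinge was 38.8% to 77.3% identical, against 66.4% to 77.0% for CH3 and 74.2% to 94.2% for CH2. The closest pair over the whole coding sequence was Ighg2b and Ighg2c, at 85.7%, and their hinges (77.3%) were no more different than their CH3 exons (77.0%). No stretch of 150 bases was shared between the transcripts of any members, yet shorter or mismatched alignments could still have been split between IgG genes, so the order among them is uncertain to that degree.

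The tail of the secreted heavy chain is shown for a second reason, since IgM and IgA carry a cysteine near their end through which the J chain joins, and IgG does not. The last 18 codons of the secreted form are given, with cysteine codons in capitals.
Ighm, chr12:113420870-113420923, minus strand: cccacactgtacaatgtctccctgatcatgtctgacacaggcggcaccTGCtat
Igha, chr12:113258771-113258824, minus strand: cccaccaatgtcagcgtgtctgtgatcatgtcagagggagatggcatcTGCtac
Ighg1, chr12:113328979-113329032, minus strand: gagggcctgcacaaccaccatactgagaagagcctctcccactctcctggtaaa
The cysteine codon was the second from the end in both Ighm and Igha, and the Ighg1 tail held 0 cysteine codons.

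Levels between genes were compared in FPKM, the authors' count scaled for transcript length and library depth. By the median over the 9 libraries the order was Igkc at 91.9 FPKM, Ighm at 70.1, Igha at 9.92, Jchain at 9.85, Ighg2c at 2.52, Ighg2b at 1.28, Ighg1 at 1.01, Ighg3 at 0.889, Ighd at 0.868 and Ighe at 0. Each of these held its place over the next in 7 or more of the 9 libraries, with 2 exceptions. Ighg1 exceeded Ighg3 in 5 libraries and Ighg3 exceeded Ighd in 6, so these 3 genes were not separated beyond their spread. The total depth was even, from 74648669 to 79474215 counts per library.

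**Figure D1:**
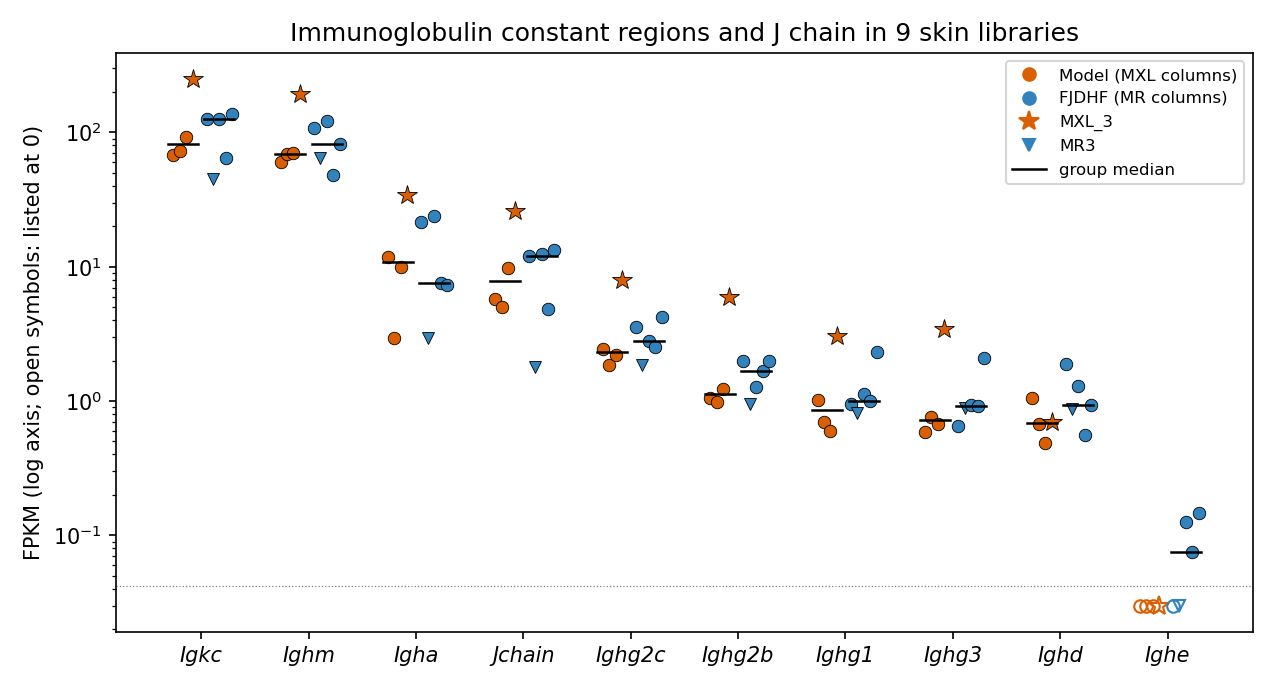
FPKM of the 10 members (x axis) on a log axis in the 4 Model libraries (orange) and 5 FJDHF libraries (blue), 1 symbol per library, with group medians as black lines and values listed at 0 as open symbols at the bottom. The Model library MXL_3 (star) is the highest of the 9 for 8 members, and the groups overlap for every member.

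No member passed the test between the groups. Of the 9 tested members 0 passed an adjusted p under 0.05 and 0 had an unadjusted p under 0.05 (quasi-likelihood test of edgeR, adjusted by Benjamini-Hochberg), and limma also gave 0 of 9 at an unadjusted p under 0.05. DESeq2 gave 0 of the 7 members for which it returned a p, and none was returned for Ighg2b and Ighg3. Over all 20817 genes the same fit called 0 genes (0%) with a 2-fold change at an adjusted p under 0.05, and 326 (1.57%) at an unadjusted p under 0.05. The fitted log2 fold change, FJDHF minus Model, was below 0 for 8 of the 9 members with a median of -0.31, against 55.9% of all tested genes below 0 with a median of -0.03. The libraries of the groups overlapped for all 10 members, whereas they did not for 0.514% of tested genes.

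One library set the direction of those values. MXL_3, of the Model group, was the highest of the 9 libraries for 8 of the 9 tested members, against 15.5% of all tested genes. Without MXL_3 the fitted fold change of each of the 8 members below 0 turned positive. Of the 11631 tested genes below 0, 2362 turned in this way, which is 11.3% of all tested genes. The 8 members were also those highest in MXL_3, and leaving out the highest Model library raises a fold change by itself. Without MXL_3 the 9 members lay between 0.35 and 0.68 with a median of 0.53 on the log2 scale. The lowest unadjusted p of these 9 was 0.122 (edgeR), so neither direction passed the test. Ighe entered the fit when MXL_3 or MXL12 was left out and is given last. At the other end MR3, of the FJDHF group, was the lowest library for 5 of the 9 tested members, against 11.7% of tested genes. In bulk skin, fewer cells of a type and less RNA per cell cannot be told apart.

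**Figure D2:**
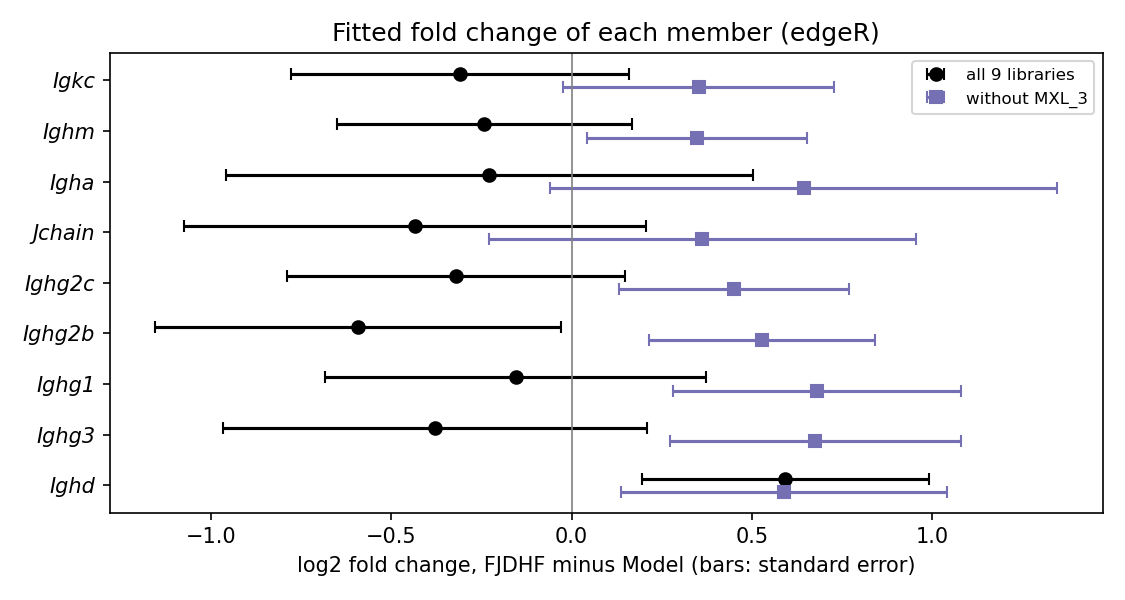
Fitted log2 fold change, FJDHF minus Model, of the 9 tested members (rows) with standard errors as bars, for all 9 libraries (black circles) and without the Model library MXL_3 (purple squares). The 8 members below 0 with all libraries lie above 0 without MXL_3, from 0.35 to 0.68, and Ighd stays near 0.59.

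Igkc, the constant region of the kappa light chain that most mouse antibodies carry, was the member with the highest median. The Model libraries MXL1, MXL12, MXL3_4 and MXL_3 held 68.4, 73.0, 91.9 and 248 FPKM, and the FJDHF libraries MR1, MR3, MR3_4, MR4_5 and MR5 held 125, 44.7, 127, 65.0 and 136 FPKM. MXL_3 stood above the other 8 libraries, 3 FJDHF libraries exceeded the other 3 Model libraries, and MR3 was the lowest. Its log2 fold change was -0.31 (SE 0.47, edgeR unadjusted p = 0.523), and 0.35 without MXL_3.

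Ighm, the mu constant region of IgM, is listed next at 60.7, 69.1, 70.1 and 193 FPKM in MXL1, MXL12, MXL3_4 and MXL_3. The FJDHF libraries gave 107, 65.0, 122, 48.4 and 81.5 FPKM in the order MR1, MR3, MR3_4, MR4_5 and MR5. The other 3 Model libraries lay close together, inside the range of the FJDHF group. For Ighm the log2 fold change was -0.24 (SE 0.41, edgeR unadjusted p = 0.567), and 0.35 without MXL_3.

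Ighd, the delta constant region that mature naive B cells co-express with mu, behaved apart from the rest. Its values were 1.05, 0.679, 0.484 and 0.695 FPKM in the Model libraries MXL1, MXL12, MXL3_4 and MXL_3, and 1.87, 0.868, 1.30, 0.555 and 0.929 FPKM in MR1, MR3, MR3_4, MR4_5 and MR5. MR1 was the highest library, MXL_3 was near the middle of its group, and the groups overlapped. It was the one tested member with a log2 fold change above 0 with all libraries, at 0.59 (SE 0.40, edgeR unadjusted p = 0.166), and it kept 0.59 without MXL_3. The mean of log2(CPM + 0.5) was 0.41 higher in FJDHF (two-sided exact permutation test, p = 0.238, where 0.00794 is the smallest p this design allows).

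Ighg1, the IgG subclass that IL-4 favours in mice, was at 1.02, 0.696, 0.603 and 3.07 FPKM in MXL1, MXL12, MXL3_4 and MXL_3, and at 0.957, 0.813, 1.14, 1.01 and 2.33 FPKM in MR1, MR3, MR3_4, MR4_5 and MR5. MXL_3 and MR5 were high and the other 7 libraries lay at or below 1.14 FPKM. The log2 fold change was -0.15 (SE 0.53, edgeR unadjusted p = 0.776), and 0.68 without MXL_3. The mean of log2(CPM + 0.5), which gives a single high library less weight, was 0.05 higher in FJDHF (two-sided exact permutation test, p = 0.889), so the sign for Ighg1 depended on the scale.

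Ighg3, a subclass often made without T cell help, repeated this arrangement of libraries. It stood at 0.591, 0.764, 0.671 and 3.46 FPKM in the 4 Model libraries in the same order, and at 0.649, 0.889, 0.939, 0.913 and 2.10 FPKM in the 5 FJDHF libraries. MXL_3 was highest, MR5 second, and the remaining values lay within a narrow band. Its log2 fold change was -0.38 (SE 0.59, edgeR unadjusted p = 0.533), and 0.68 without MXL_3.

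Ighg2b and Ighg2c, the subclasses tied to TGF-beta and to interferon gamma respectively, were the other IgG genes. Ighg2b was at 1.05, 0.987, 1.23 and 5.95 FPKM in MXL1, MXL12, MXL3_4 and MXL_3, and at 2.00, 0.948, 1.28, 1.68 and 1.99 FPKM in MR1, MR3, MR3_4, MR4_5 and MR5. Its log2 fold change was -0.59 (SE 0.56, edgeR unadjusted p = 0.317), and 0.53 without MXL_3. It had the value farthest below 0 of the members, and 4 of the 5 FJDHF libraries exceeded all Model libraries other than MXL_3. Ighg2c was at 2.45, 1.85, 2.21 and 7.96 FPKM in the Model libraries and at 3.59, 1.86, 2.78, 2.52 and 4.20 FPKM in the FJDHF libraries, in the same orders. Again 4 of the 5 FJDHF libraries lay above all Model libraries other than MXL_3. The log2 fold change of Ighg2c was -0.32 (SE 0.47, edgeR unadjusted p = 0.508), and 0.45 without MXL_3.

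Igha, the alpha constant region of IgA, the class exported across epithelia, varied more between libraries than any heavy chain gene but Ighe. Levels of 11.8, 2.93, 9.92 and 34.0 FPKM were measured in MXL1, MXL12, MXL3_4 and MXL_3, and of 21.6, 2.97, 24.0, 7.53 and 7.34 FPKM in MR1, MR3, MR3_4, MR4_5 and MR5. MXL12 and MR3, 1 library of each group, were the low ones, and the highest library was 12.4-fold above the lowest in CPM, counts scaled to the library total. The log2 fold change was -0.23 (SE 0.73, edgeR unadjusted p = 0.761). It was 0.64 without MXL_3 and 0.01 without MR3.

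Jchain had the widest range of the 9 tested members, 15.7-fold in CPM between MR3 and MXL_3. Its values were 5.79, 5.01, 9.85 and 26.2 FPKM in MXL1, MXL12, MXL3_4 and MXL_3, and 12.1, 1.79, 12.4, 4.87 and 13.2 FPKM in MR1, MR3, MR3_4, MR4_5 and MR5. The FJDHF libraries fell into 3 near 12 to 13 FPKM, with MR4_5 lower and MR3 lowest, and MXL_3 exceeded them all. The log2 fold change was -0.44 (SE 0.64, edgeR unadjusted p = 0.512), and 0.36 without MXL_3.

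Ighe, the epsilon constant region of IgE, was at the edge of detection. It had 0 counts in all 4 Model libraries and in MR1 and MR3, and 16, 10 and 19 counts in MR3_4, MR4_5 and MR5, or 0.126, 0.0748 and 0.148 FPKM. The groups overlapped at 0, and the filter on low counts removed the gene from the test. Summed over the groups this was 45 counts against 0. With the Model group set to a floor of 3 counts over the group, the FJDHF value was 11.8-fold higher. That floor covers counting error in the Model group only, not in FJDHF and not the spread between libraries. The difference in mean log2(CPM + 0.5) gave p = 0.167 (two-sided exact permutation test). With counts in only 3 libraries, all of them FJDHF, no smaller p was possible in this direction, so that test cannot decide. Without the filter on low counts the edgeR unadjusted p was 0.0201 and the adjusted p was 0.857, and it was unadjusted 0.0340 without MXL_3 and 0.0332 without MXL12. Small counts in these files need care, because a value of 4 occurred 9269 times and the values 3 and 5 occurred 4568 and 3045 times, and whether both reads of a pair were counted is not given in the sources used here.

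The makeup of the heavy chain transcripts was taken as each gene's percent of the summed FPKM of the 8 heavy chain genes, with no test. Ighm made up 77.1% to 89.7% of the sum in the 9 libraries. The class-switched genes together gave 18.1% ± 4.67 in FJDHF (SD, n = 5) and 17.5% ± 5.83 in Model (SD, n = 4), a difference far inside the spread. Igha gave 10.9% ± 5.15 in FJDHF and 11.0% ± 5.03 in Model, and the 4 IgG genes together gave 7.14% ± 2.88 and 6.47% ± 1.27. MXL_3, which had the highest level of 8 members, had a makeup inside the range of the other libraries for Ighm (77.8%), Igha (13.7%) and IgG (8.25%). Its class-switched share, 21.95%, was the highest of the 9 libraries, narrowly above MR4_5 at 21.91%. Its Ighd share, 0.281%, was the lowest of the 9 libraries, which ranged up to 1.36%.

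Among the class-switched transcripts alone the libraries divided by their Igha share. Igha was 40.5% of the class-switched sum in MXL12, 39.7% in MR3 and 40.5% in MR5, and 54.8% to 79.3% in the other 6 libraries. These 3 libraries came from both groups. The level of Igha itself was lowest in MXL12 and MR3, at 2.93 and 2.97 FPKM. In MR5 Igha, at 7.34 FPKM, was also below its median of 9.92, and the IgG level was high, with IgG at 10.6% of all heavy chain FPKM. The ratio of Igkc to the heavy chain sum lay between 0.610 in MR3 and 1.35 in MR5.

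**Figure D3:**
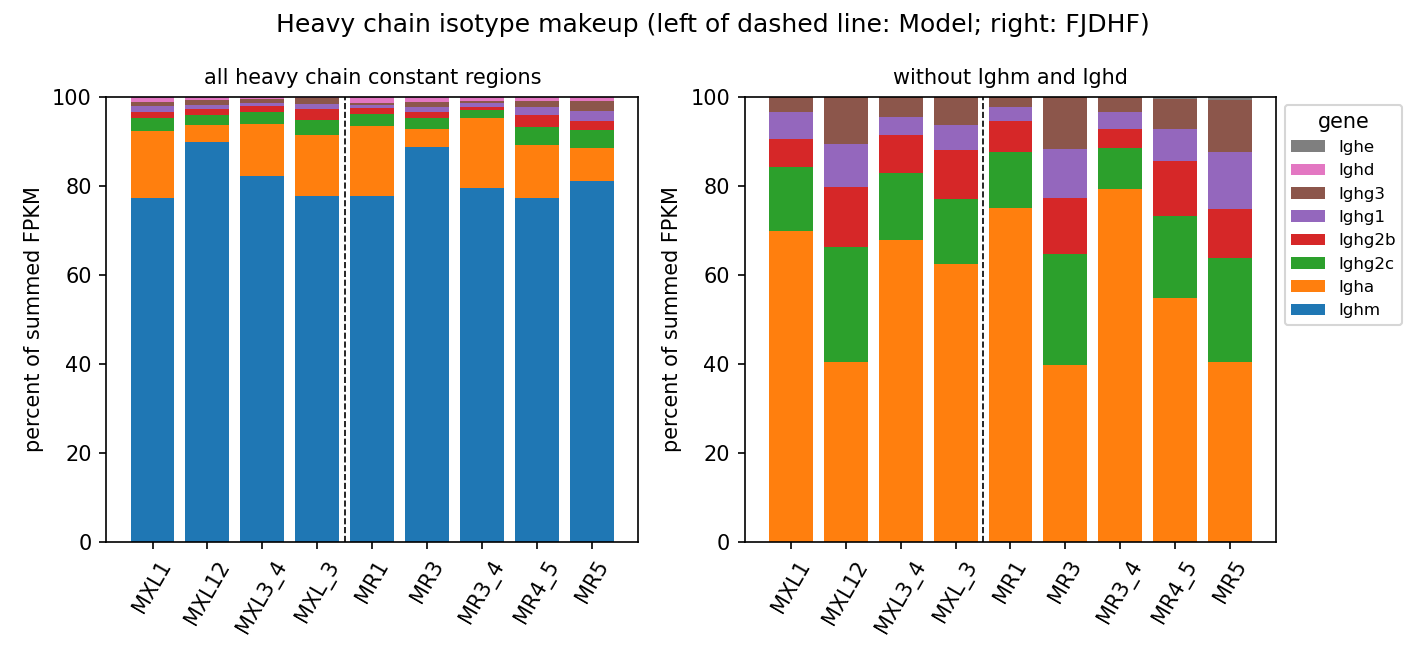
Percent of summed FPKM taken by each heavy chain constant region gene in each library, for all 8 genes (left) and without Ighm and Ighd (right), with Model libraries left of the dashed line and FJDHF libraries right of it. Ighm fills 77.1% to 89.7% of every bar at left, and at right Igha is near 40% in MXL12, MR3 and MR5 and higher in the other 6 libraries.

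The J chain was compared with each of the 8 other tested members across libraries on log2(CPM + 0.5), and Ighd with Ighm, as 9 relations over both groups together, since neither group has enough libraries alone. Jchain followed Igkc most closely (Pearson r = 0.973, exact permutation p = 0.000176, Benjamini-Hochberg adjusted over the 9 relations 0.00159, and Spearman rho = 0.967, exact permutation p = 0.000165, adjusted 0.00149, n = 9). The relation did not rest on the extremes, with r = 0.972 over the 7 libraries left without MR3 and MXL_3. With Igha, whose protein the J chain joins, r was 0.834 (exact permutation p = 0.00456, adjusted 0.0145) and rho 0.783 (exact permutation p = 0.0172, adjusted 0.0388, n = 9), and r fell to 0.640 without MR3 and MXL_3. With Ighm r was 0.798 (exact permutation p = 0.00968, adjusted 0.0218) and rho 0.900 (exact permutation p = 0.00203, adjusted 0.00913, n = 9), and r was 0.612 without MR3_4 and MXL_3. The FPKM ratio of Jchain to Igha ranged from 0.490 in MXL1 to 1.80 in MR5.

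The IgG genes followed Jchain to differing degrees. For Ighg2c r was 0.843 (exact permutation p = 0.00484, adjusted 0.0145) and rho 0.833 (exact permutation p = 0.00827, adjusted 0.0248, n = 9), with r = 0.780 without MR5 and MXL_3. For Ighg2b r was 0.776 (exact permutation p = 0.0160, adjusted 0.0288), rho was 0.733 (exact permutation p = 0.0311, adjusted 0.0560, n = 9) and r was 0.634 without MR1 and MXL_3. The relations with Ighg1 and Ighg3 rested on MR5 and MXL_3, since r was 0.680 and 0.600 with all libraries (exact permutation p = 0.0460 and 0.0977, adjusted 0.0691 and 0.126, rho = 0.667 and 0.467 with exact permutation p = 0.0589 and 0.213, adjusted 0.0883 and 0.273) and 0.287 and -0.18 without those libraries. The relation of Ighd with Jchain did not pass (r = 0.216, exact permutation p = 0.575, adjusted 0.575, rho = 0.367, exact permutation p = 0.336, adjusted 0.336), with r = -0.10 without MR1 and MR3_4. Ighd and Ighm gave r = 0.381 (exact permutation p = 0.311, adjusted 0.350) and rho = 0.367 (exact permutation p = 0.336, adjusted 0.336, n = 9), and r = 0.724 without MR3_4 and MXL_3.

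**Figure D4:**
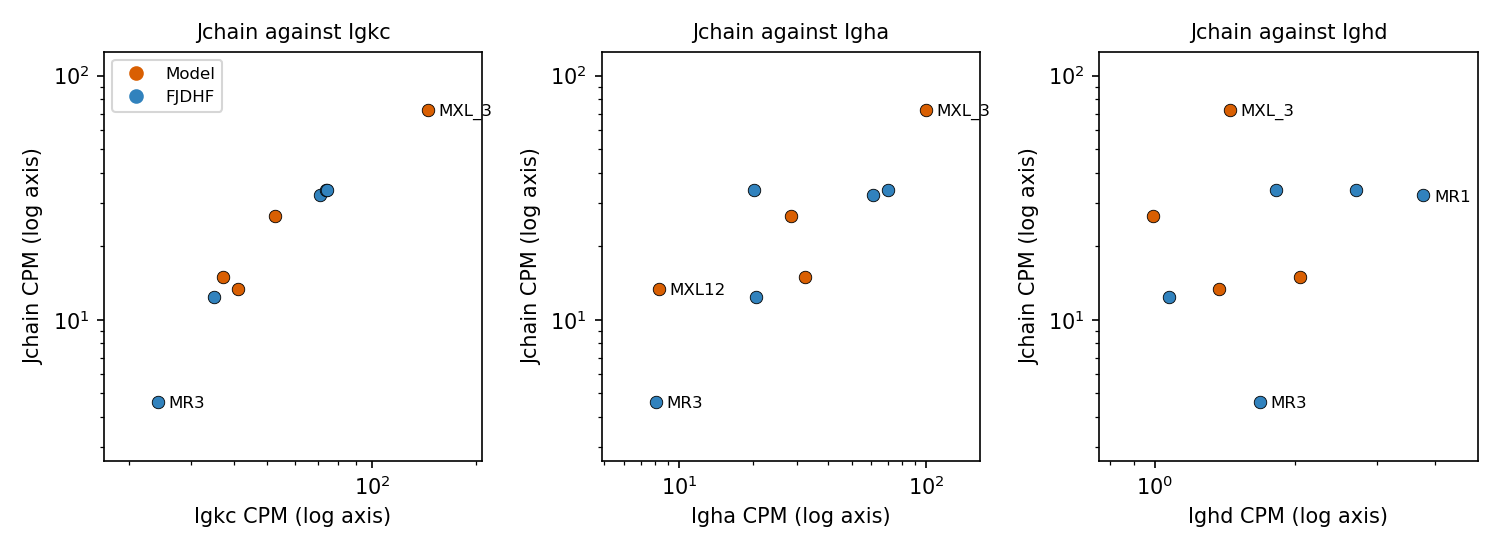
Jchain CPM (y, log axis) against the CPM of Igkc, Igha and Ighd (x, log axes) in the 4 Model libraries (orange) and 5 FJDHF libraries (blue), 1 point per library. The points lie near a line for Igkc (r = 0.973), more widely for Igha (0.834), and without order for Ighd (0.216).

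The genes most like each member over the 9 libraries were taken from the tested genes that are not immunoglobulin genes, by Pearson's r of log2(CPM + 0.5), as a description. For Ighd the first was Ms4a1, which encodes the B cell surface protein CD20 (r = 0.930), followed by Gm47754 (0.928) and Gm14230 (0.923), and all 3 were highest in MR1. For Ighm they were Aamdc (0.985), Syt11 (0.984) and Tinag (0.983), all 3 highest in MXL_3. Igkc was nearest to Gimap6 (0.956), Clec1a (0.952) and Dnase1l1 (0.942), and Jchain to Gm12599 (0.943), mt-Tp (0.936) and Pigp (0.930). Igha was nearest to Gbp10 (0.963), Mrps16 (0.939) and Tmprss5 (0.938). For the IgG genes they were Gucy1a1 (0.969), Ppp2r3a (0.967) and Isca2 (0.957) for Ighg1, Ltf (0.968), Tm4sf19 (0.935) and Pcdh17 (0.931) for Ighg2b, 4930511M06Rik (0.961), Gucy1a1 (0.952) and Pmfbp1 (0.952) for Ighg2c, and Lrp2bp (0.952) and Gm43668 (0.951) for Ighg3. The 26 genes so chosen, Gucy1a1 standing for both Ighg1 and Ighg2c, were picked as the highest of 20703 over 9 points, so the size of r follows from the choice, and 20 of them were highest in MXL_3.

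No B cell gene was called between the groups. Of 14 B cell genes tested 12 had a fold change above 0 and 2 below, 0 had an unadjusted p under 0.05 (edgeR), and the median was 0.19. Their summed level was 67.5 to 122 CPM in FJDHF and 67.6 to 117 CPM in Model, with MR3_4 highest and MXL_3 second at 117 CPM. Most of that sum was Ebf1, at 39.4 to 90.6 CPM, a gene also expressed outside the B lineage. In MXL_3 3 of the 14 genes had their highest value, against 15.5% of all tested genes. The smallest p values were those of Fcer2a, the low-affinity IgE receptor CD23 (log2 fold change 1.27, SE 0.60, edgeR unadjusted p = 0.0614), and of the coreceptor Cd72 (0.61, SE 0.30, unadjusted p = 0.0684). Ms4a1, a defining B cell gene, was at 0.0668 to 0.326 FPKM over the 9 libraries, below every tested member but not below Ighe. Not all of the list was that low, since Cd72 was at 1.23 to 3.55 FPKM.

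Of 16 plasma cell genes 11 lay above 0 and 5 below, with a median log2 fold change of 0.14. Creld2, an endoplasmic reticulum chaperone gene, was the 1 gene under an unadjusted p of 0.05, against 0.773% of all tested genes in that direction (log2 fold change 0.48, SE 0.19, edgeR unadjusted p = 0.0315, and 0.0731 without MXL_3). Xbp1 at 63.0 to 88.1 FPKM and Sdc1 at 44.6 to 156 FPKM were abundant in every library, and both are also expressed by keratinocytes. Mzb1, which is close to restricted to the B lineage, was at 0.0871 to 0.720 FPKM with its highest value in MXL_3. Tnfrsf17 and Derl3, of the same list, were not highest there. Tnfrsf17 was at 0.687 FPKM in MXL_3 and 2.08 FPKM in MR3_4, its highest library. Derl3 was at 0.0620 FPKM in MXL_3 and 0.252 FPKM in MXL1, its highest library. The summed plasma cell list was lowest in MXL_3, at 937 CPM against 1034 CPM or more in FJDHF, but Sdc1, Xbp1 and Txndc5 made up most of that sum, so it does not show whether plasma cell transcripts followed the members. Irf4, a transcription factor of activated and antibody-secreting B cells and of other immune cells, was highest in MXL_3 at 41.8 CPM, against at most 31.3 CPM elsewhere. Cd38, Mzb1 and Txndc5 were also highest there, so 4 of the 16 genes were, against 15.5% of all tested genes.

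**Figure D5:**
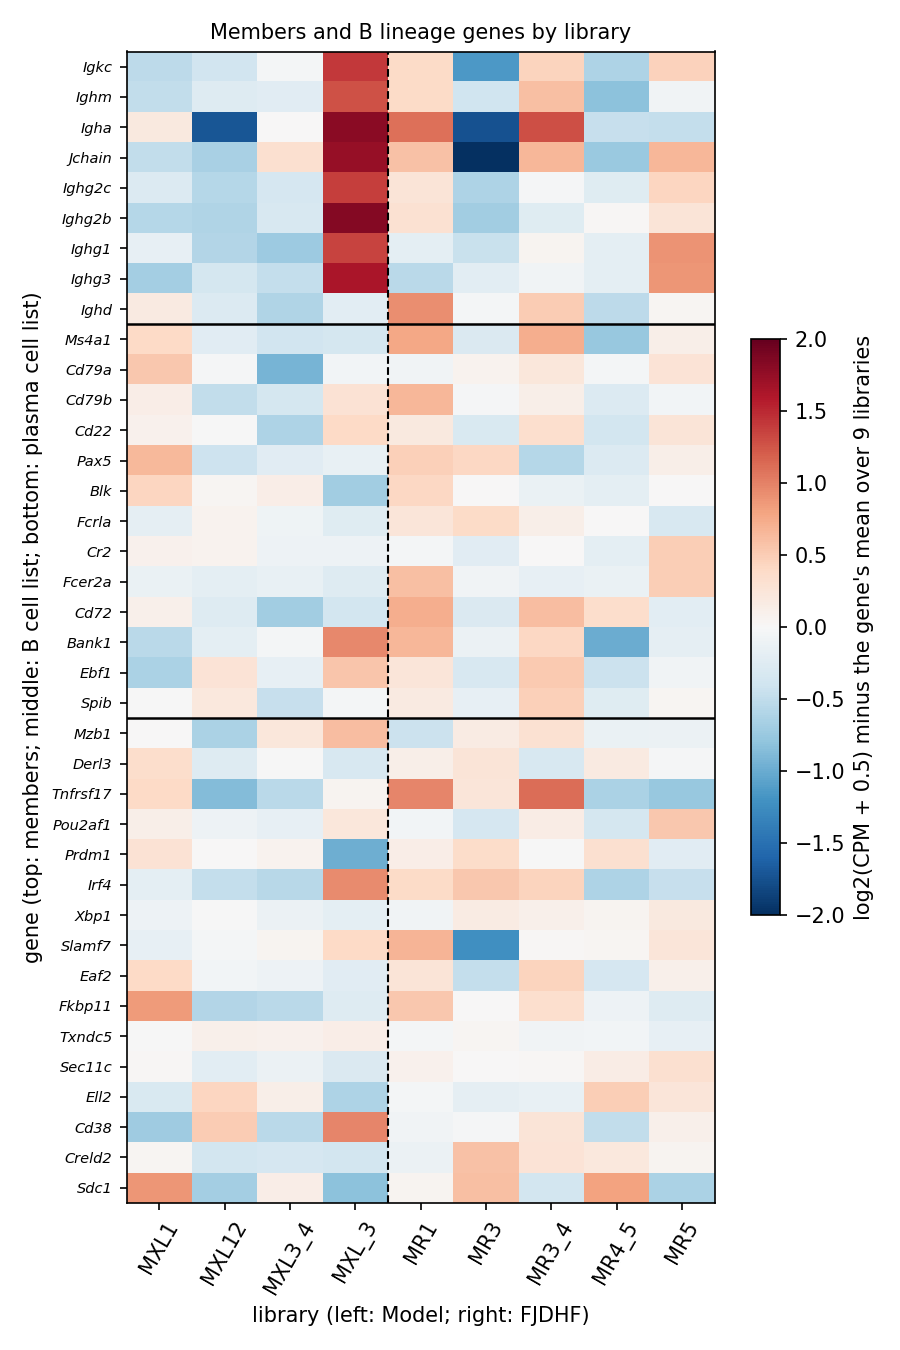
Level of the 9 tested members (top), 13 of the 14 B cell genes (middle) and 16 plasma cell genes (bottom) in each library, as log2(CPM + 0.5) minus the gene's mean over the 9 libraries, with Model libraries left of the dashed line. All members but Ighd are deep red in MXL_3, while 3 of the 13 B cell genes drawn and 4 of the 16 plasma cell genes are highest there.

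Of the 3 tested lambda light chain genes 1, Iglc2, had an unadjusted p under 0.05. Iglc2 was at 0.668, 4.08, 1.58 and 27.1 FPKM in MXL1, MXL12, MXL3_4 and MXL_3, and at 2.36, 1.71, 1.05, 0.952 and 1.31 FPKM in MR1, MR3, MR3_4, MR4_5 and MR5. MXL_3 stood far above the other 8 libraries, the groups overlapped, and the log2 fold change was -2.55 (SE 0.91, edgeR unadjusted p = 0.0181, against 0.793% of tested genes under 0.05 in that direction). Without MXL_3 it was -0.53 (unadjusted p = 0.364, edgeR). Iglc3 and Iglc1 also had values below 0. The lambda share of the light chain FPKM was 3.71% to 12.5% in the other 8 libraries and 16.1% in MXL_3.

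Genes that act upstream and downstream of class switching gave no call with all libraries. Of 11 tested class switch genes 0 had an unadjusted p under 0.05 (edgeR), the smallest being those of Trp53bp1 (log2 fold change 0.20, unadjusted p = 0.197) and Nfil3 (-0.33, unadjusted p = 0.230). Of 11 tested switch cytokines and their receptors 0 passed the same edgeR threshold, with Il6 (-2.06, unadjusted p = 0.0539) and Tnfsf13, the plasma cell survival factor APRIL (-0.64, unadjusted p = 0.108), the nearest, and Il4 at 0.489 to 1.38 FPKM had a log2 fold change of 0.02. Of 13 Fc receptor and transport genes 0 passed it (edgeR), the smallest p being those of Lgals3, an IgE-binding lectin (0.33, unadjusted p = 0.170), and Fcmr, the IgM receptor (0.55, unadjusted p = 0.324).

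Other cell types were read from marker lists in the same fit. T cell genes gave 0 of 10 at an unadjusted edgeR p under 0.05, with Cd8a (0.70, unadjusted p = 0.137) and Cd5 (0.49, unadjusted p = 0.236) the nearest, and mast cell genes 0 of 8, with Hdc (-1.75, unadjusted p = 0.0662) and Kit (-0.18, unadjusted p = 0.433). Of 8 tested lymph node genes 1 passed, Ccr7, the homing receptor of naive lymphocytes and migrating dendritic cells (-1.55, SE 0.44, edgeR unadjusted p = 0.00532). Of 9 neutrophil genes 1 passed, Trem1 (-4.08, edgeR unadjusted p = 0.0335), and that list stood at 835 CPM in MXL12 against at most 171 CPM in the other libraries. Without MXL12 the value of Trem1 was 1.75 (edgeR unadjusted p = 0.0591). Of 6 tested blood genes 0 passed in edgeR, with Hbb-bt (1.00, unadjusted p = 0.163) and Alas2 (0.78, unadjusted p = 0.203) the nearest. Ccr7 and Trem1 were both lower in FJDHF, and 0.793% of all tested genes had an unadjusted edgeR p under 0.05 in that direction. None of the genes in these lists passed an adjusted p under 0.05 (edgeR with Benjamini-Hochberg adjustment).

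Skeletal muscle genes were, like the members, highest in MXL_3. The 8 muscle genes summed to 15843 CPM there and to 552 to 10049 CPM in the other libraries. The second-highest muscle sum was in MR3, which had the lowest summed CPM of the members (173), so the order by muscle and by members differed there. MR3_4, next in muscle at 8678 CPM, was second for the members at 447 CPM. MR4_5 and MXL12, lowest in muscle at 1852 and 552 CPM, were also low for the members at 175 and 211 CPM. Against that, MXL1 had more muscle than MR1 (4220 against 3353 CPM) and less of the members (215 against 398 CPM). Of the muscle genes 7 of the 8 were highest in MXL_3, and 0 had an unadjusted edgeR p under 0.05 between the groups, with Mylpf (-0.45, unadjusted p = 0.592) and Atp2a1 (-0.23, unadjusted p = 0.783) the nearest. The part of the muscle RNA in the member values was not tested. Skin markers were abundant, since the 8 skin genes summed to 23761 CPM or more in every library. Within that list Krt1 (1.48, SE 0.41, edgeR unadjusted p = 0.00446) and Krt10 (1.23, SE 0.39, unadjusted p = 0.00996), keratins of the upper epidermis, were higher in FJDHF at an unadjusted p, and Col3a1 lower (-0.57, SE 0.25, unadjusted p = 0.0416, and 0.102 without MXL_3), none past the adjustment. At an unadjusted edgeR p under 0.05, 0.773% of all tested genes were higher in FJDHF and 0.793% lower.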

How the data were processed

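RNA-seq of back skin was used, 5 FJDHF and 4 Model libraries. The authors deposited raw counts per gene as whole numbers, and FPKM values with gene names and GRCm38 positions. Polyadenylated RNA was sequenced from both ends. The submitters' processing notes name HISAT, StringTie, DESeq2 and mm10. The annotation release, and whether strand was used in counting, are not given in the sources used here. Another 9 columns that repeat the counts were not used.

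Members were matched by gene name in the FPKM table and joined to the counts by gene identifier. The members and the gene lists were chosen with earlier results of these data known. All genes were fitted to the counts by the quasi-likelihood test of edgeR 4.0.16 (R 4.3.3), after filterByExpr and TMM scaling, without covariates and with p adjusted by Benjamini-Hochberg, and rows of members were read from that fit. For the level of a single gene, a two-sided exact permutation test (numpy 2.4.6) was run on log2(CPM + 0.5). The correlations were ranked and adjusted with scipy 1.17.1. Named genes were all members, from each list the genes at an unadjusted p under 0.05 (at most 5) or otherwise the 2 with the smallest p, and the 3 genes most correlated with each tested member, of which 1 is not reported here. Ms4a1, Ebf1, Mzb1, Tnfrsf17, Derl3, Irf4, Cd38, Txndc5, Xbp1, Sdc1, Il4, Iglc1 and Iglc3 were named in addition, after their values were seen. Sequences came from the GENCODE M21 transcripts of GRCm38. The fits were tested on simulated data. Alternatives were DESeq2 1.42.0 (its size factors, and its Wald test), limma 3.58.1 on log2(FPKM + 1), no filter, at least 10 counts in every library, each library left out in turn, a replicate block, a pseudocount of 0.1, FPKM and ranks for levels, and counts for the makeup. Total counts were 74648669 to 79474215 per library, at which 3 counts equal 0.0377 to 0.0402 CPM.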

Additional observations from a re-analysis of the deposited data

Results flagged for a closer look

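The highest or lowest library of each group was compared with the rest of its group by Dixon's gap ratio, for the log2(CPM + 0.5) of each member, the makeup percentages and ratios, the total counts and the summed marker lists. Of 60 comparisons 4 passed the 95% critical value of 0.829 for 4 libraries, where chance gives about 1 in 20, or 3.

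All 4 were MXL_3 above the other 3 Model libraries, and they are not independent, since they share that library. The ratio was 0.847 for Ighm, where MXL_3 was at 8.64 and the other Model libraries at 6.88 to 7.15 on the log2 scale. It was 0.883 for Ighg2b (4.17 against 1.72 to 2.01), 0.844 for Ighg2c (3.60 against 1.64 to 1.94) and 0.858 for Ighg3 (3.33 against 1.02 to 1.35).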

How the results depend on the processing

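The number of genes with a 2-fold change at an adjusted p under 0.05 was 0 in every setting except DESeq2's Wald test, which gave 2. The number at an unadjusted p under 0.05 was 326, and 905 without a filter on low counts, where more genes were tested. Leaving out 1 library gave 217 (without MR4_5) to 734 (without MXL1). Members at an unadjusted p under 0.05 went from 0 to 1 without the filter, and lay between 0 and 1 with 1 library left out. The 1 gene was Ighe, which also entered the test without MXL12 or MXL_3.

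Fold changes of members kept their sign in 71 of 72 fits that left out a library other than MXL_3, the exception being Igha without MR3 (0.01), and in 1 of 9 without MXL_3. With 1 library left out they ranged from -0.43 to 0.35 for Ighm, 0.30 to 0.80 for Ighd, -0.49 to 0.68 for Ighg1, -0.85 to 0.53 for Ighg2b, -0.54 to 0.45 for Ighg2c, -0.74 to 0.68 for Ighg3, -0.62 to 0.64 for Igha, -0.52 to 0.35 for Igkc and -0.69 to 0.36 for Jchain. By limma Ighg1 was at 0.012. Differences in mean log2(CPM + 0.5) ranged from -0.33 to 0.26 for Ighm, 0.22 to 0.58 for Ighd, -0.18 to 0.51 for Ighg1, -0.39 to 0.43 for Ighg2b, -0.30 to 0.35 for Ighg2c, -0.30 to 0.47 for Ighg3, 0.21 to 0.36 for Ighe, -0.72 to 0.45 for Igha, -0.42 to 0.23 for Igkc and -0.70 to 0.094 for Jchain. These differences kept their sign in 71 of 80 settings that left out a library other than MXL_3, and in 3 of 10 without MXL_3. Without MR3 those of Ighg2c (0.053), Igha (0.29), Igkc (0.055) and Jchain (0.068) turned positive. In mean rank FJDHF was above Model by 0.90 for Ighg2b and Ighg2c and 1.35 for Ighg3, and by 0 for Ighm. The causes were not tested. All 41 recomputed makeup differences moved by less than 1 SD. Leaving out 1 library cannot move a group mean that far, so those fits do not show that the makeup was stable. With 1 library left out the difference in mean percent, FJDHF minus Model, changed sign for each quantity followed. It ranged from -2.85 to 1.77 for Ighm and from -2.53 to 1.60 for Igha. For the IgG genes together it ranged from -0.18 to 1.46, and for the class-switched genes from -2.08 to 2.61.

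Shared numbers in the column codes allowed a replicate block over 6 libraries, which gave 256 genes at an unadjusted p under 0.05 and turned Ighm to 0.053. After each gene's group mean was taken off, same-numbered libraries correlated at 0.01, -0.23 and 0.08. Pairs with different numbers correlated at -0.46 to 0.37. So few pairs cannot show whether same-numbered libraries share more than a name.

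Limits are the unexplained column codes, 4 and 5 libraries, a median member fold change whose sign rests on MXL_3, and IgG genes similar enough to split reads. Ighe lies near the counting floor.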
